A study of Oryctolagus cuniculus with 9 samples.

Results

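The genes described here are the Wnt ligands, their receptors and the proteins that carry the Wnt signal, in cultured HA-VSMC cells with and without β-estradiol, a steroid hormone that acts mainly through nuclear estrogen receptors. Members were the rows of the gene table whose symbol starts with WNT or FZD and a digit, SFRP, DKK and a digit, or RSPO, together with single pathway genes chosen by name (among them WLS, LRP6, CTNNB1, APC, AXIN2, GSK3B and LEF1). This gave 53 of the 19291 genes in the table. LRP5, AXIN1, GSK3A, DVL1, DVL3 and RNF43 had no row under these symbols and are not analysed here.

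The series holds mRNA sequencing of 9 libraries in 3 groups of 3: controls, cells with 50 nM β-estradiol and cells with 250 nM β-estradiol, harvested after 48 h. All came from the same line in serum-containing medium. Its title names the Wnt/β-catenin pathway in adenomyosis, a disease with islands of endometrium inside the muscle of the uterus. Whether DMSO, the solvent of the estradiol, was given to the controls is not stated. Their tags read estrogen for the treatment and WT for the concentration, and the protocol mentions 250 nM alone. The labels give the rabbit as the organism and the table uses rabbit Ensembl identifiers, while the line's name is in common use for human aortic smooth muscle cells, and the species was not checked. The labels do not say that replicates were separate cultures. The spread behind every p-value is that between these libraries, and it could be purely technical.

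Wnt ligands are lipid-modified secreted proteins: PORCN adds the lipid, and WLS carries the ligand to the cell surface. In the canonical branch, a ligand bound to a Frizzled receptor and the co-receptor LRP5 or LRP6 halts a destruction complex built on APC, AXIN and GSK3, so that β-catenin (CTNNB1) accumulates and joins TCF/LEF factors at target genes such as AXIN2. In the non-canonical branch, ligands such as WNT5A act through Frizzled receptors with ROR2 or RYK on cell shape, polarity and calcium, and both branches are known in vascular smooth muscle for effects on growth and migration.

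Libraries held 54718407 to 72274464 count units, which at about 4 units for each fragment is near 13679602 to 18068616 fragments, and 12324 genes had enough counts to be tested. Smooth muscle markers were mixed in level, given as FPKM (fragment density per transcript length and library size, deposited by the authors) averaged over the controls. ACTA2 stood at 1322, TPM2 at 994 and MYL9 at 538, whereas MYH11, specific to differentiated smooth muscle, stood at 4.65. MYOCD (0.408), LMOD1 (0.451) and MYLK (0.414) were below 1 FPKM, DES was listed at 0, and TAGLN and CNN1 are not analysed here. Of 12 smooth muscle markers in the table, 7 were above 1 FPKM in all 9 libraries. The 12 summed to 3223 to 3455 FPKM in the controls, 3170 to 3360 at 50 nM and 3251 to 3298 at 250 nM. Of 9 fibroblast markers in the table, 8 were above 1 FPKM in all 9 libraries, and their summed level was 5838 to 6082 FPKM in the controls, 6366 to 6700.3 at 50 nM and 6466 to 6678 at 250 nM. Summed endothelial markers stayed between 0.903 and 2.20 FPKM, and epithelial markers between 2.09 and 3.51 FPKM. The leukocyte markers summed to 87.7 to 98.9 FPKM, nearly all of it LCP1, with the defining gene PTPRC at or near 0. In bulk libraries, fewer cells of a type and less RNA per cell cannot be told apart.

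Of the 53 members, 40 had enough counts to be tested, 26 were above 1 FPKM in every library and 14 above 10 FPKM. β-catenin and the ligand carrier were the most abundant. CTNNB1 stood at 337, 320.5 and 350.2 FPKM in the 3 controls, rank 221 among the 12324 tested genes, and WLS at 288, 277 and 293 FPKM, rank 254. These ranges did not overlap. The lipid-adding enzyme PORCN was at 4.11, 4.02 and 4.58 FPKM.

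WNT5A, the classical non-canonical ligand, was the leading Wnt, at 106, 108 and 105 FPKM in the controls and rank 673. It made up 88.2% to 91.9% of the summed FPKM of the 17 ligands in every library. WNT10B followed at 5.82, 5.30 and 6.41 FPKM and WNT4 at 4.77, 3.36 and 2.93 FPKM. WNT10B was the higher of these in each control. WNT9A and WNT8A lay near 1 FPKM, with control means of 1.38 ± 0.279 and 1.02 ± 0.0335 (SD, n = 3). WNT11 and WNT2 averaged 0.404 and 0.187 FPKM, and WNT3A reached at most 0.124 FPKM in any library.

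The other 9 ligands, WNT1, WNT2B, WNT3, WNT5B, WNT6, WNT7A, WNT8B, WNT10A and WNT16, were not tested for lack of counts, nor were the inhibitors DKK2 and DKK4, the feedback inhibitor NKD1 and the transcription factor TCF7. None of these 13 exceeded 14 units or 0.257 CPM (counts scaled to library size with TMM factors) in any library, the highest being WNT1. DKK2 and WNT16 had 0 counts in all 9 libraries. A count of 0 allows up to 3 fragments, or 0.167 to 0.220 CPM depending on the library, for counting error only, and absence of these transcripts is therefore not shown.

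Among 8 Frizzled receptors, all tested, FZD1 (22.3, 21.5 and 20.5 FPKM in the controls) and FZD6 (21.3, 19.6 and 22.3 FPKM) shared the lead, and their ranges overlapped. FZD1 made up 25.8% to 29.4% and FZD6 26.3% to 31.3% of the summed Frizzled FPKM over all libraries. FZD2 (12.1, 12.1 and 9.39 FPKM) and FZD7 (10.5, 12.2 and 9.57 FPKM) came next and overlapped too. FZD5 averaged 4.76, FZD4 3.15, FZD3 1.15 and FZD9 0.567 FPKM. Of the non-canonical receptors, RYK and ROR2 were higher than any Frizzled. RYK, a kinase-dead receptor, was at 91.8, 93.7 and 97.4 FPKM and the receptor kinase ROR2 at 37.7, 37.7 and 37.4 FPKM. Its relative ROR1 averaged 0.0737 FPKM. The canonical co-receptor LRP6 stood at 17.5, 19.6 and 19.7 FPKM and made up 10.8% to 13.8% of the summed level of these 4 receptors.

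R-spondins, secreted enhancers that spare Frizzled receptors from removal, were led by RSPO2, at 4.32, 5.02 and 4.53 FPKM and 85.0% to 91.7% of their sum. RSPO3 averaged 0.613 FPKM and RSPO1 0.0571 FPKM. ZNRF3, the ubiquitin ligase that removes Frizzled receptors, stood at 3.38, 3.31 and 3.50 FPKM. The secreted inhibitors were nearly all DKK3, at 175, 189 and 176 FPKM, and SFRP2, at 71.3, 71.1 and 72.1 FPKM, which made up 69.2% to 72.1% and 27.1% to 30.1% of their sum. DKK3 belongs to the Dickkopf family by sequence, but unlike DKK1 it is not known as an LRP6 antagonist. DKK1 itself averaged 0.695 FPKM, SFRP5 0.998 and SFRP4 0.281 FPKM, and the Dickkopf co-receptor KREMEN1 7.34 FPKM.

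Inside the cell, the scaffold APC (21.6, 27.6 and 23.6 FPKM), DVL2, which relays the signal from Frizzled (23.7, 24.5 and 22.8 FPKM), and the kinase GSK3B (17.9, 21.3 and 17.1 FPKM) were at similar levels. AXIN2, a scaffold that is itself a target gene, was at 2.91, 2.84 and 3.42 FPKM. Of the TCF/LEF factors, TCF7L1 (14.5, 13.7 and 13.1 FPKM) made up 53.4% to 57.8% and TCF7L2 (9.98, 9.50 and 9.20 FPKM) 39.0% to 42.7% of the sum, whereas LEF1 averaged 0.784 FPKM.

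**Figure D1:**
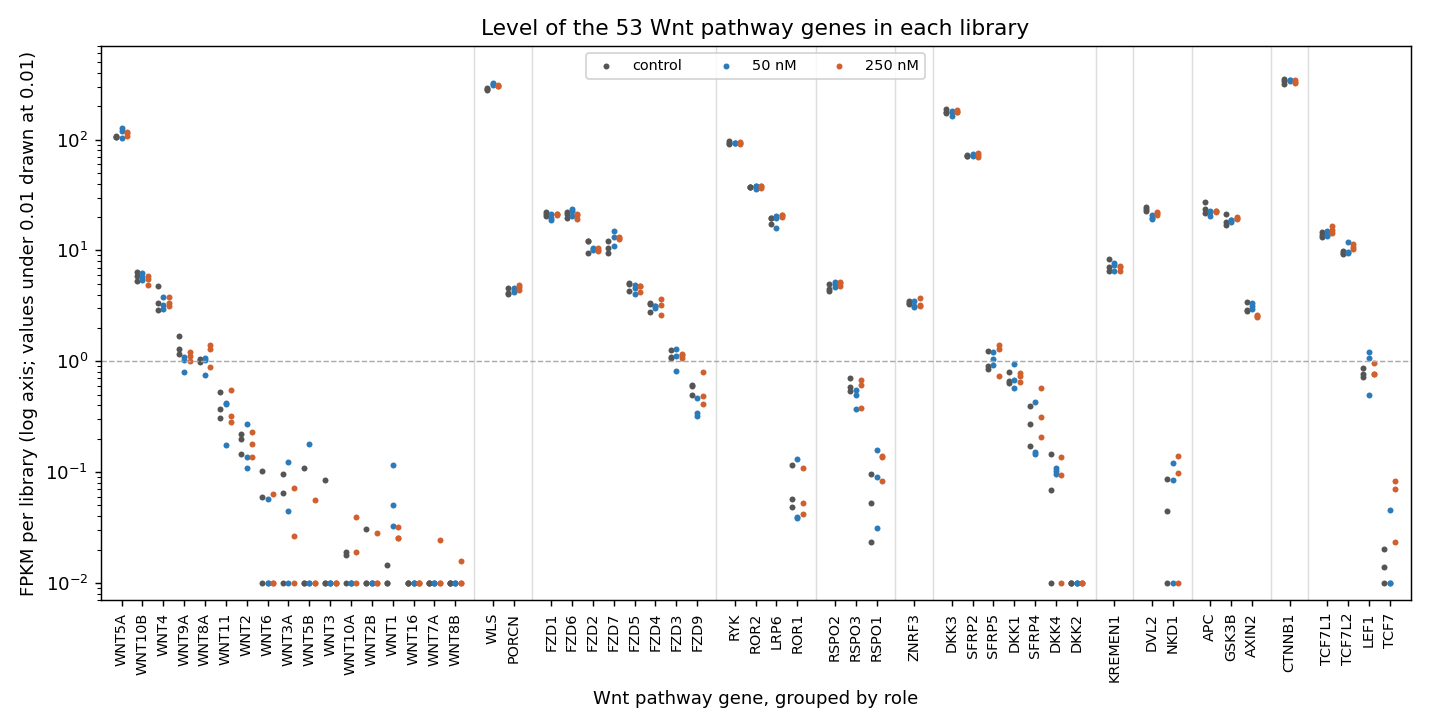
FPKM of each of the 53 genes in each of the 9 libraries (log axis, 1 point per library, values under 0.01 drawn at 0.01), grouped by role and coloured by estradiol group; the dashed line marks 1 FPKM. CTNNB1, WLS, DKK3 and WNT5A lead, WNT5A stands far above the other ligands, and the 3 groups lie on top of each other for most genes above 1 FPKM.

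Estradiol at either concentration moved these levels little. Differences are given as log2 fold changes with standard errors from edgeR's quasi-likelihood test on all 9 libraries, adjusted over all 12324 genes with a threshold of 0.05, and "interval" means the unadjusted 95% interval. At 50 nM against the control, 1 of 40 tested members passed, WLS, which was higher. Of all genes tested, 3.25% passed, and 1.55% were higher. At an unadjusted p under 0.05 there were 4 members, WLS, FZD7 and WNT5A with positive values and DVL2 with a negative value, beside 15.6% of all genes. For 6 members the groups did not overlap, beside 19.0% of all genes: WLS, CTNNB1 and SFRP2 lay higher, and DVL2, FZD9 and WNT9A lower. The median log2 fold change was 0.03 over the members and -0.00 over all genes.

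At 250 nM against the control, 0 of 40 members passed in edgeR, beside 0.308% of all genes. DESeq2, which applies its own filter, called 0 members. At an unadjusted p under 0.05 there were 4, all with positive values (WLS, FZD7, TCF7L1 and TCF7L2), beside 8.67% of all genes in either direction and 3.97% with positive values. Groups did not overlap for 7 members, beside 15.5% of all genes: 6, namely WLS, FZD7, WNT5A, TCF7L1, TCF7L2 and LRP6, lay higher, as did 7.75% of all genes, and AXIN2 lay lower. Between 250 nM and 50 nM, 0 members passed in either tool, beside 0.325% in edgeR, and 2 (AXIN2 and FZD6, both lower at 250 nM) had an unadjusted p under 0.05, beside 5.68% in either direction and 2.67% lower. There 5 members did not overlap, beside 11.5%. The medians were 0.03 in each of these comparisons. In the test of any difference among the 3 groups, 0 members passed in edgeR, beside 1.86% of all genes, and DESeq2 called 1, WLS. In edgeR 5 had an unadjusted p under 0.05, beside 12.0% of all genes, and the lowest adjusted p was 0.0690, for WLS. Counted in either direction, each share of the members was near that of all genes or below it.

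Both comparisons with the control use the same 3 control libraries, so a member's values in them are not independent. For 26 of the 40 members the interval lay within 0.5 on the log2 scale of no change at 50 nM, as for 8822 of the 12324 genes tested, and for 26 members and 9165 genes at 250 nM. The 5 tested members that averaged under 1 CPM had wide intervals. Some members above 1 CPM did too, such as WNT11 (-1.04 to 0.55 at 50 nM) and WNT2 (-0.81 to 0.68).

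**Figure D2:**
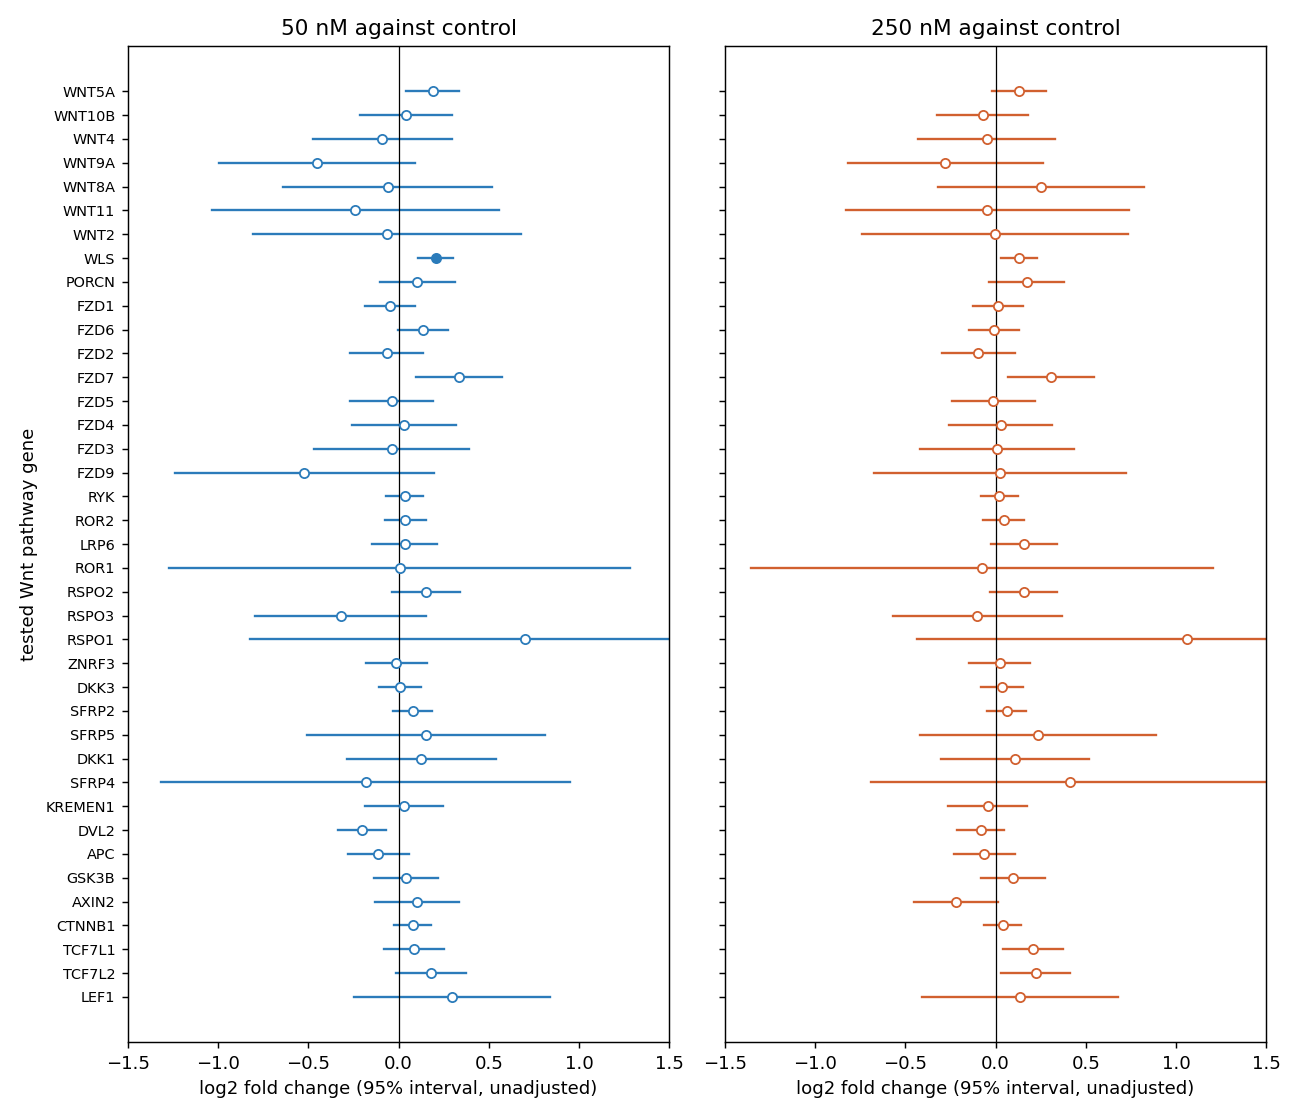
Log2 fold change and unadjusted 95% interval of the tested members at 50 nM (left) and 250 nM (right) against the control, in order of role and level; the filled point marks the call at an adjusted p under 0.05. WLS at 50 nM is the only filled point; intervals are cut at the frame where they run past it, and WNT3A, whose group means lay under the limit that a count of 0 allows, is not drawn.

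WLS, without which Wnt ligands stay inside the cell, rose at 50 nM. Its level was 721, 708 and 737 CPM in the controls, 811, 843 and 843 at 50 nM and 777, 806 and 790.2 at 250 nM. All 50 nM and all 250 nM libraries lay above all controls, with the 50 nM libraries highest. The rise at 50 nM was 0.21 ± 0.05 (interval 0.11 to 0.30, edgeR adjusted p = 0.0232), or 1.15-fold, with 3 of 3 libraries above every control. At 250 nM the value was 0.13 ± 0.05 (interval 0.03 to 0.23, edgeR adjusted p = 0.377), which did not pass, and 250 nM against 50 nM gave -0.07 ± 0.05 (interval -0.17 to 0.03). The call at 50 nM was lost without control replicate 1, 2 or 3 (edgeR adjusted p = 0.0510, 0.0651 and 0.0684), without 50 nM replicate 1 or 2 (0.0568 and 0.0745) and with only these 2 groups fitted (0.0950). On log2(FPKM + 1) it was 0.15 (limma adjusted p = 0.113). The summed fibroblast markers were 5838 to 6082 FPKM in the controls, 6366 to 6700.3 at 50 nM and 6466 to 6678 at 250 nM. Such a sum gives most weight to its most abundant markers, and its part in the WLS value was not tested. PORCN, the other member of the secretory step, had values of 0.11 ± 0.10 and 0.17 ± 0.10 at 50 and 250 nM, and its groups overlapped the controls.

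WNT5A was at 586, 603 and 581 CPM in the controls, 689, 739.9 and 592 at 50 nM and 615, 654 and 668 at 250 nM. All 250 nM libraries and 2 of the 3 libraries at 50 nM lay above the controls, while 50 nM replicate 3 lay among them. The values were 0.19 ± 0.07 at 50 nM (interval 0.04 to 0.34, edgeR adjusted p = 0.174) and 0.13 ± 0.07 at 250 nM (interval -0.02 to 0.28, edgeR adjusted p = 0.646), and neither passed. Without 50 nM replicate 3 the value at 50 nM was 0.28, with an edgeR adjusted p of 0.0109, and without 50 nM replicate 2 it was 0.12 (edgeR adjusted p = 0.521). Replicate 3 at 50 nM was the lowest of its group for 15 of the 40 members, beside 37.4% of all genes. The less abundant ligands had no call: at 50 nM, WNT10B was 0.04 ± 0.12, WNT4 -0.09 ± 0.18, WNT8A -0.06 ± 0.27 and WNT11 -0.24 ± 0.37. WNT9A was 1.88, 1.46 and 1.28 CPM in the controls and 1.18, 0.942 and 1.26 at 50 nM, a separation without a call (-0.45 ± 0.26, edgeR adjusted p = 0.438) that was gone at 250 nM (1.14, 1.40 and 1.27 CPM).

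FZD7 had the largest value of the better-expressed Frizzled receptors. It was at 18.1, 21.4 and 16.5 CPM in the controls, 23.8, 27.1 and 19.6 at 50 nM and 22.2, 23.8 and 23.2 at 250 nM. The 250 nM libraries lay above every control, whereas 50 nM replicate 3 lay below control replicate 2. The values were 0.34 ± 0.11 at 50 nM (interval 0.10 to 0.57, edgeR adjusted p = 0.136) and 0.31 ± 0.11 at 250 nM (interval 0.07 to 0.55, edgeR adjusted p = 0.394). Without 50 nM replicate 3 the former was 0.45, with an edgeR adjusted p of 0.0213. It was 0.22 without 50 nM replicate 2 and 0.25 without control replicate 3 (edgeR adjusted p = 0.458 and 0.431). As a share of all Frizzled FPKM, FZD7 was 13.3% to 16.3% in the controls, 14.4% to 20.3% at 50 nM and 16.9% to 18.0% at 250 nM.

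FZD6, known from planar cell polarity, was at 110.3, 103 and 116 CPM in the controls, 122, 112 and 127 at 50 nM and 110.0, 114 and 103 at 250 nM. Control and 250 nM covered nearly the same range, and 50 nM replicates 1 and 3 lay above it. Its values were 0.14 ± 0.06 at 50 nM (edgeR adjusted p = 0.324), -0.01 ± 0.06 at 250 nM, and -0.15 ± 0.06 between 250 nM and 50 nM (interval -0.29 to -0.01, edgeR adjusted p = 0.819). FZD1 was at 41.6, 40.8 and 38.4 CPM in the controls, 38.0, 37.4 and 41.5 at 50 nM and 39.9, 41.2 and 40.8 at 250 nM, with overlap throughout and values of -0.05 ± 0.07 and 0.01 ± 0.07. FZD2, FZD3, FZD4 and FZD5 had values between -0.10 (FZD2 at 250 nM) and 0.03 (FZD4). FZD9, the least abundant, was 0.870, 1.08 and 1.03 CPM in the controls and 0.634, 0.596 and 0.843 at 50 nM (-0.52 ± 0.34, edgeR adjusted p = 0.515), and 1.41, 0.743 and 0.879 at 250 nM.

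The other receptors, RYK, ROR2 and LRP6, had no call. RYK was at 279, 289.8 and 297 CPM in the controls, 297, 297 and 292 at 50 nM and 292, 289 and 298 at 250 nM, and ROR2 between 103 and 111 CPM over the 9 libraries. Intervals for RYK were -0.07 to 0.14 at 50 nM and -0.08 to 0.13 at 250 nM, and for ROR2 -0.08 to 0.15 and -0.07 to 0.16, so changes beyond these bounds were not seen in either. LRP6 was at 93.3, 106 and 105 CPM in the controls, 114, 111 and 87.3 at 50 nM and 114, 116 and 110.4 at 250 nM. The 250 nM libraries lay above the controls, and 50 nM replicate 3 was the lowest of all. Neither LRP6 value passed (0.03 ± 0.09 at 50 nM and 0.16 ± 0.09 at 250 nM, edgeR adjusted p = 0.916 and 0.665).

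RSPO2 was at 12.5, 14.8 and 13.2 CPM in the controls, 15.0, 15.9 and 14.1 at 50 nM and 15.4, 15.4 and 14.4 at 250 nM. Its groups overlapped, with similar values of 0.15 ± 0.09 and 0.16 ± 0.09, and no call (edgeR adjusted p = 0.447 and 0.688). ZNRF3 had -0.01 ± 0.08 and 0.02 ± 0.08, and RSPO3 -0.32 ± 0.22 and -0.10 ± 0.22. RSPO1 ranged from 0.0642 to 0.377 CPM over the 9 libraries, around the limit that a count of 0 allows.

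Among the inhibitors, SFRP2, which binds Wnt ligands outside the cell, was at 127, 129 and 129 CPM in the controls, 137, 135 and 134 at 50 nM and 137, 136 and 128 at 250 nM. The 50 nM libraries lay above every control by a small step (0.08 ± 0.05, edgeR adjusted p = 0.533), and 250 nM replicate 3 fell back among the controls (0.06 ± 0.05). DKK3 was at 309, 339 and 312 CPM in the controls, 329, 308 and 328 at 50 nM and 335, 326 and 324 at 250 nM. Its groups overlapped, with intervals of -0.11 to 0.12 and -0.08 to 0.15. DKK1, both an LRP6 antagonist and a target gene, ranged from 2.33 to 2.92 CPM in the controls, 2.24 to 3.61 at 50 nM and 2.52 to 3.00 at 250 nM, with values of 0.13 ± 0.19 and 0.11 ± 0.19. KREMEN1 had values of 0.03 ± 0.10 and -0.04 ± 0.10.

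DVL2 was the member with the lowest p among negative values at 50 nM. It was at 53.4, 56.2 and 51.5 CPM in the controls, 45.9, 45.6 and 48.5 at 50 nM and 50.6, 52.6 and 49.0 at 250 nM. Each 50 nM library lay below each control, and the 250 nM libraries lay between or among them. The value was -0.20 ± 0.06 at 50 nM (interval -0.33 to -0.07, edgeR adjusted p = 0.0977) and -0.08 ± 0.06 at 250 nM. DVL2 did not pass in edgeR, but passed in DESeq2 (adjusted p = 0.0388) and on log2(FPKM + 1), where it was -0.24 (limma adjusted p = 0.0445).

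The β-catenin transcript differed little between groups. The protein, whose level is mainly set by degradation, was not measured. CTNNB1 was at 817, 791 and 852 CPM in the controls, 864, 864 and 869 at 50 nM and 864, 826 and 839 at 250 nM. The 50 nM libraries lay just above the highest control, and 250 nM overlapped it. The values were 0.08 ± 0.05 (interval -0.02 to 0.18, edgeR adjusted p = 0.479) and 0.04 ± 0.05 (interval -0.06 to 0.14, edgeR adjusted p = 0.899).

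In the destruction complex, APC was at 196, 255 and 215 CPM in the controls, 213, 213 and 191 at 50 nM and 212, 212 and 214 at 250 nM, and GSK3B at 23.7, 28.5 and 22.6 CPM in the controls, 24.9, 26.1 and 25.9 at 50 nM and 26.9, 26.9 and 26.4 at 250 nM. For both genes the controls spread more widely than either estradiol group, and each estradiol group overlapped the controls. The GSK3B libraries at 250 nM all lay above those at 50 nM, without a call (0.06 ± 0.08). APC had values of -0.11 ± 0.08 and -0.06 ± 0.08, and GSK3B 0.04 ± 0.08 and 0.10 ± 0.08. AXIN2, often read as a transcript of canonical Wnt activity, was at 7.60, 7.53 and 8.95 CPM in the controls, 8.09, 9.28 and 8.47 at 50 nM and 6.94, 6.90 and 6.84 at 250 nM. The 3 libraries at 250 nM lay close together and below all others. AXIN2 had 0.10 ± 0.11 at 50 nM (edgeR adjusted p = 0.742), -0.22 ± 0.11 at 250 nM (interval -0.45 to 0.01, edgeR adjusted p = 0.610) and -0.32 ± 0.11 between 250 nM and 50 nM (interval -0.56 to -0.09, edgeR adjusted p = 0.536), and none passed.

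TCF7L1 and TCF7L2, the main TCF factors here, had their highest means at 250 nM. TCF7L1 was at 39.7, 38.0 and 35.8 CPM in the controls, 38.9, 43.4 and 38.1 at 50 nM and 40.4, 47.7 and 42.8 at 250 nM. TCF7L2 was at 33.5, 32.4 and 30.9 CPM in the controls, 34.1, 42.7 and 32.9 at 50 nM and 37.1, 40.0 and 35.9 at 250 nM. In both genes every 250 nM library lay above every control, and at 50 nM replicate 2 stood above the other libraries of its group. TCF7L1 had values of 0.09 ± 0.08 at 50 nM and 0.21 ± 0.08 at 250 nM (edgeR adjusted p = 0.675 and 0.417), and TCF7L2 0.18 ± 0.09 and 0.22 ± 0.09 (edgeR adjusted p = 0.358 and 0.465). LEF1 was at 2.32, 2.87 and 2.46 CPM in the controls, 4.09, 3.63 and 1.67 at 50 nM and 2.56, 2.59 and 3.24 at 250 nM. Its 50 nM libraries held both the highest and the lowest value of the 9, and the interval at 50 nM ran from -0.25 to 0.84.

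**Figure D3:**
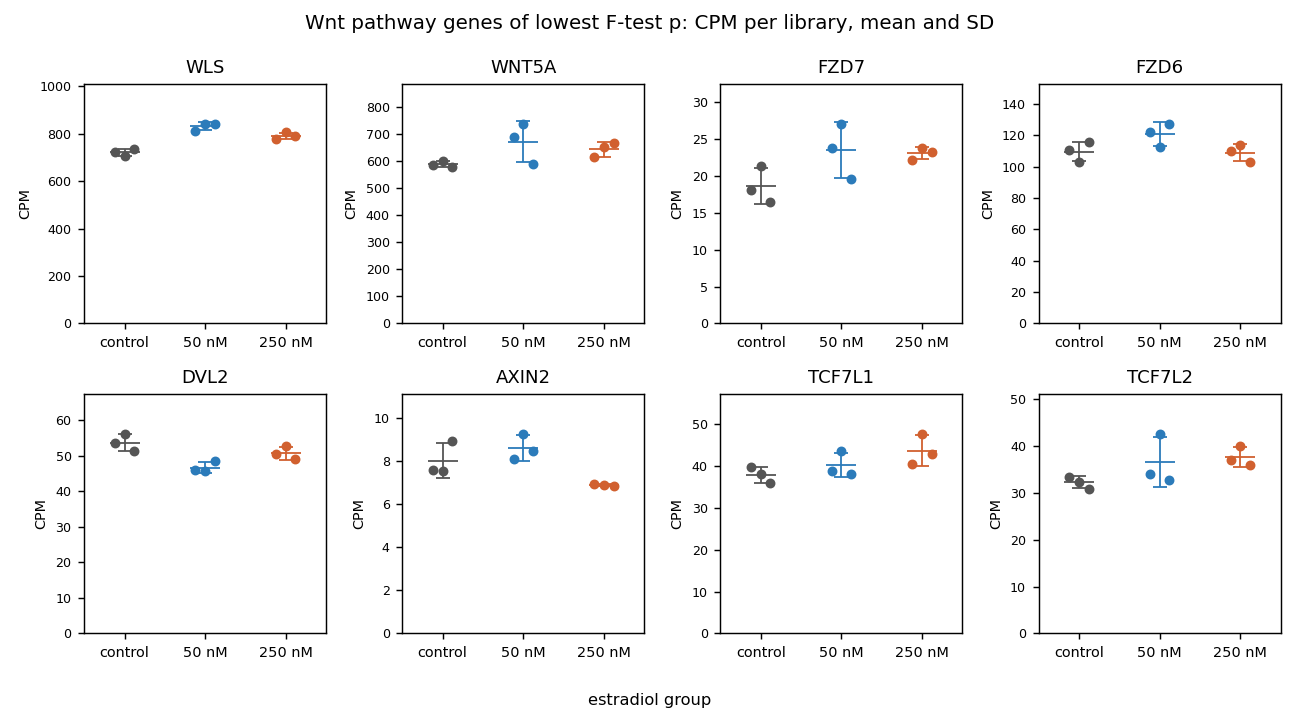
CPM per library (points), mean (bar) and SD (whiskers, n = 3) by estradiol group for the 8 members of lowest p in the test of any difference among the 3 groups; each axis starts at 0. WLS is separated from the control at both concentrations, AXIN2 is lowest at 250 nM, and replicate 3 is the lowest 50 nM library for WNT5A and FZD7.

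Replicates of a group varied by a median coefficient of variation of 9.39% over the tested members in the controls, 8.81% at 50 nM and 5.52% at 250 nM, beside 7.99%, 8.26% and 6.20% over all genes tested.

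Genes known to respond to β-catenin and TCF factors in other tissues were followed as a list of 40, of which 29 had a row and 23 were tested. AXIN2, LEF1, ZNRF3 and DKK1, described above, belong to it, and APCDD1, LGR5 and NOTUM also stand in the lists of other pathway genes below. At 50 nM, 4 of 23 passed, beside 3.25% of all genes, in both directions: SOX9 and TBX3 rose, and MYC and JUN fell. The median log2 fold change was 0.13 in edgeR on all 9 libraries, beside -0.00 over all genes in the same fit. It was 0.06 without control replicate 1, 0.05 without 50 nM replicate 2 and 0.07 among genes of at least 5 CPM in 3 libraries. Over the 3 FPKM settings it was 0.02 to 0.05. The median over all genes also moved with the setting, by up to 0.053 from no change, so -0.00 is not the background for these other fits. Groups did not overlap for 10 of 23 genes, beside 19.0% of all genes. An unadjusted p under 0.05 was seen for 11 of 23 (7 higher, 4 lower), beside 15.6% of all genes. The list was chosen with earlier results of these data known. Its shares, here and below, are therefore not an independent comparison with all genes. MYC, JUN and SOX9 answer to many pathways besides Wnt.

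MYC, which drives growth and ribosome production, was at 88.5, 102 and 88.2 CPM in the controls, 74.8, 71.6 and 73.9 at 50 nM and 94.1, 105 and 98.7 at 250 nM. The 50 nM libraries lay below all others. MYC fell by 0.34 ± 0.07 on the log2 scale at 50 nM (edgeR adjusted p = 0.0108), had 0.10 ± 0.07 at 250 nM (edgeR adjusted p = 0.766), and was higher at 250 nM than at 50 nM by 0.44 ± 0.07 (edgeR adjusted p = 0.00567, and 0.0626 without 250 nM replicate 2).

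JUN, a subunit of the transcription factor AP-1, was at 103, 99.6 and 100.4 CPM in the controls, 84.8, 88.2 and 85.0 at 50 nM and 113, 109 and 104 at 250 nM. Here too the 50 nM libraries were the lowest, without overlap. JUN fell by 0.23 ± 0.05 at 50 nM (edgeR adjusted p = 0.0279) and was higher at 250 nM than at 50 nM by 0.34 ± 0.05 (edgeR adjusted p = 0.00933). The fall at 50 nM was lost without control replicate 1, 2 or 3 (0.0746, 0.0512 and 0.0956), 50 nM replicate 1 or 2 (0.111 and 0.0537) or 250 nM replicate 2 (0.0514), and with only these 2 groups fitted (0.0727). The difference between the concentrations was lost without 50 nM replicate 1 (0.0740) or 250 nM replicate 1 or 2 (0.0918 and 0.0731), each an edgeR adjusted p.

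TBX3, a T-box repressor, was at 24.9, 25.7 and 23.7 CPM in the controls, 38.9, 33.8 and 33.1 at 50 nM and 29.7, 30.6 and 32.0 at 250 nM. The 250 nM libraries lay between the controls and the 50 nM libraries, with no overlap. TBX3 rose by 0.51 ± 0.08 at 50 nM (edgeR adjusted p = 0.00120), and had 0.31 ± 0.08 at 250 nM (edgeR adjusted p = 0.130). SOX9, a regulator of cartilage and progenitor cells, was at 151, 163 and 151 CPM in the controls, 201, 187 and 182 at 50 nM and 175, 173 and 160.0 at 250 nM. SOX9 rose by 0.29 ± 0.06 at 50 nM (edgeR adjusted p = 0.0131), a call lost without control replicate 3 (0.0807) or 50 nM replicate 1 (0.0791) and on FPKM (limma adjusted p = 0.0545 on log2(FPKM + 1), 0.0546 on log2(FPKM + 0.1) and 0.0713 with no filter). It had 0.13 ± 0.06 at 250 nM.

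Of the other listed targets, 3 did not pass in edgeR at 50 nM but passed in DESeq2. CD44, a hyaluronan receptor, had 0.18 ± 0.05 (edgeR adjusted p = 0.0846), PLAUR, the urokinase receptor, 0.21 ± 0.06 (edgeR adjusted p = 0.0652), and the growth factor BMP4 -0.21 ± 0.06 (edgeR adjusted p = 0.0698). BMP4 also passed in limma on FPKM, in all 3 settings run, PLAUR in edgeR among genes of at least 5 CPM in 3 libraries, and CD44 in edgeR without 50 nM replicate 3. At 250 nM against the control, 0 of 23 passed in edgeR, beside 0.308% of all genes. There 5 of 23 had an unadjusted p under 0.05 (3 higher, 2 lower), beside 8.67%, and 7 of 23 did not overlap, beside 15.5%. DESeq2 called FOSL1 and TBX3 at 250 nM. FOSL1, a Fos-family partner of JUN, was 10.6, 9.21 and 9.71 CPM in the controls and 14.1, 12.5 and 13.5 at 250 nM, without overlap (0.44 ± 0.11, edgeR adjusted p = 0.130). Between 250 nM and 50 nM, MYC and JUN were the 2 that passed in edgeR, beside 0.325% of all genes, both higher at 250 nM. In that comparison 6 of 23 had an unadjusted p under 0.05 (2 higher, 4 lower), beside 5.68%, and 6 did not overlap, beside 11.5%.

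A further 107 symbols covered the rest of the pathway, of which 81 had a row and 77 were tested: 30 canonical components, 16 extracellular ones and 31 of the non-canonical branch. This list too was chosen with earlier results of these data known. At 50 nM, 3 of 77 passed in edgeR, beside 3.25% of all genes, a share near the background when counted in either direction. Each was lower, as were 210 of the 12324 genes tested, so the either-direction share is not the matching background for the direction. Each came from a different group, and the median was -0.01. BCL9L, which links β-catenin to its co-activators, was at 245, 263 and 249 CPM in the controls, 192, 216 and 181 at 50 nM and 231, 236 and 218 at 250 nM. Its 50 nM libraries lay below all others, and it fell by 0.36 ± 0.07 (edgeR adjusted p = 0.00588). SOSTDC1, a secreted antagonist of Wnt and BMP signalling, was at 145, 148 and 139 CPM in the controls, 109.9, 108 and 123 at 50 nM and 139, 122 and 128 at 250 nM. It fell by 0.34 ± 0.07 (edgeR adjusted p = 0.00897, and 0.0551 without 50 nM replicate 1), with an overlap between 50 nM and 250 nM in 1 pair of libraries.

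MAP2K4, a kinase upstream of JNK, was at 40.5, 40.9 and 43.4 CPM in the controls, 33.5, 34.4 and 36.5 at 50 nM and 38.2, 41.2 and 37.7 at 250 nM. It fell by 0.26 ± 0.07 (edgeR adjusted p = 0.0471), close to the threshold. That call was lost without any 1 library other than 50 nM replicate 3 (edgeR adjusted p = 0.0629, 0.0766 and 0.195 without control replicates 1 to 3, 0.168 and 0.142 without 50 nM replicates 1 and 2, and 0.0740, 0.0618 and 0.0722 without 250 nM replicates 1 to 3), and with only these 2 groups fitted (0.104). At 250 nM against the control 0 of 77 passed in edgeR, beside 0.308% of all genes, with 6 at an unadjusted p under 0.05, beside 8.67%. DESeq2 with its own filter also called 0 there. Between 250 nM and 50 nM 0 passed in both, beside 0.325%, with 4 unadjusted, beside 5.68%. These shares too were near those of all genes.

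**Figure D4:**
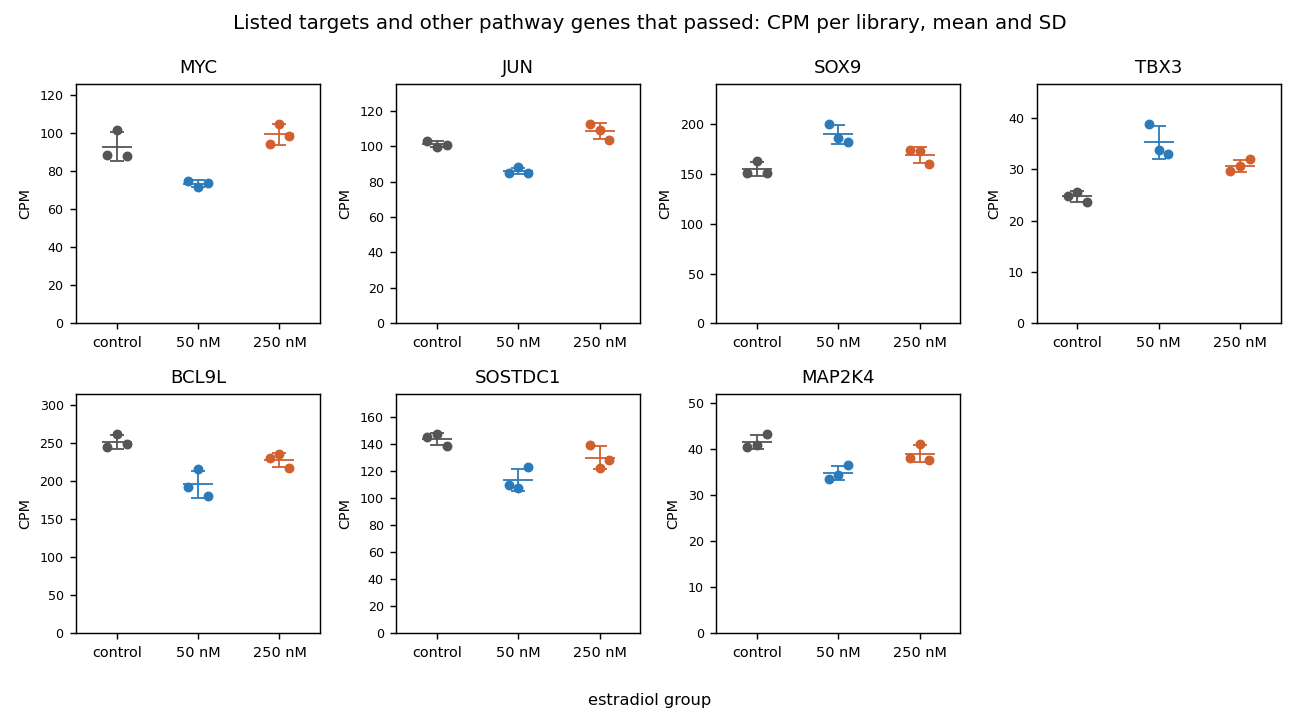
CPM per library (points), mean (bar) and SD (whiskers, n = 3) by estradiol group for the 4 listed targets and the 3 other pathway genes that passed at 50 nM against the control; each axis starts at 0. MYC, JUN, BCL9L, SOSTDC1 and MAP2K4 have their lowest and SOX9 and TBX3 their highest mean at 50 nM.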

How the data were processed

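The 53 members and the gene lists were chosen with earlier results of these data known. Per the submitters' processing notes, reads were handled with Trim Galore, TopHat2 2.1.1, Cufflinks and Cuffdiff. The genome build is not given in the sources used here, nor is the tool that made the count table. The authors deposited estimated counts, whole numbers whose low values pile up at 4, 8 and 12 (about 4 units per fragment), and FPKM values; 0 columns of other samples were left out. Groups came from the sample titles. All 53 symbols matched RefSeq names of the rabbit assembly mOryCun1.1, for names alone.

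The filter filterByExpr (minimum count 10) left 99.99% of counts. Tests used edgeR 4.0.16 under R 4.3.3 (quasi-likelihood test, TMM factors, 9 libraries, Benjamini-Hochberg adjustment over 12324 genes, threshold 0.05). The procedure was also run on counts simulated from its own fitted model, which cannot check how well that model holds for these libraries. CPM were computed from the deposited counts. The biological coefficient of variation was 8.92%. Levels of different genes were compared only on FPKM. Replicate libraries differed by more than sampling noise (chi-square per degree of freedom 3.08 to 11.6), so none were merged. Whether counting used strand is not stated, so overlapping or antisense genes could share counts. Named members were those that passed, the 8 of lowest p in the test of any difference, members fixed by symbol, and the most abundant of each role; other members are named by role with their values. Of the other lists, every gene that passed and up to 6 of lowest p per list were named. Alternatives were DESeq2 1.42.0, limma-voom (limma 3.58.1), RLE and upper-quartile factors, other filters (none, or 5 CPM in 3 libraries), counts divided by 4, only the 2 groups compared, a replicate block, limma on log2(FPKM + 1) and log2(FPKM + 0.1), and each library left out.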

Additional observations from a re-analysis of the deposited data

How the results depend on the processing

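For 50 nM against the control, the count of members that passed was 1 with edgeR, 2 with DESeq2 (WLS and DVL2), 0 on log2(FPKM + 1) with no filter, 0 with only the 2 groups fitted, and 0 to 3 with each library left out. On log2(FPKM + 1) and log2(FPKM + 0.1) with a filter it was also 1, but the gene was DVL2 and not WLS. For any difference among the groups the 0 of edgeR was 1 with DESeq2 and 0 to 1 with a library left out. Listed targets that passed at 50 nM numbered 4 in edgeR, 7 in DESeq2, 4 on FPKM, where BMP4 passed and SOX9 did not, and 2 to 6 with a library left out; at 250 nM against the control 0 in edgeR and 2 in DESeq2; between the concentrations 2, 1 on log2(FPKM + 1) with no filter, where MYC had a limma adjusted p of 0.0535, and 0 to 2 with a library left out. Other pathway genes that passed at 50 nM numbered 3 in edgeR, 6 in DESeq2 and 1 to 5 with a library left out. The 6 in DESeq2 were 4 lower and 2 higher, and included DAAM2, GPC4 and NFATC4 besides BCL9L, MAP2K4 and SOSTDC1. MAP2K4 was also lost with RLE or upper-quartile factors (edgeR adjusted p = 0.0511 and 0.0510) and on log2(FPKM + 1) with no filter (limma adjusted p = 0.0633). For members at 250 nM, and for other pathway genes there, every setting run gave 0. The causes of these shifts were not tested, beyond the fewer samples or groups in some fits.

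Over all genes, 401 passed at 50 nM in edgeR (191 higher, 210 lower), 662 in DESeq2 (358 and 304), 244 with the 2 groups alone, and 187 to 564 with a library left out; on log2(FPKM + 1) the split was 88 higher and 252 lower, and with no filter 77 and 157 (234 in all). At 250 nM the 38 became 128 in DESeq2, 4 to 10 on FPKM and 5 to 56 with a library left out; between the concentrations the 40 became 97, 11 to 26 and 21 to 50. The median log2 fold change over all genes lay within 0.053 of no change in every setting run.

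With the replicate number as a block, 2 members passed at 50 nM, FZD7 (edgeR adjusted p = 0.0492) and WLS. Same-numbered libraries did not deviate together (correlations from -0.0319 to 0.0359), and 3 of 9 libraries correlated best with their own number. No pairing by number was therefore seen, though a small shared effect could be missed. Of 1191 alternative values of named members, 0 reversed a call, 1120 kept direction and call, 56 changed sign without a call in either setting, 6 gained and 9 lost the call.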
